A study of Mus musculus with 6 samples.

Results

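The 4 receptor genes and 6 of the ligand genes of the fibroblast growth factor (FGF) family were followed in MC-38 tumor cells taken from mice. The 10 genes, Fgfr1 to Fgfr4 and Fgf1, Fgf2, Fgf7, Fgf10, Fgf18 and Fgf21, were chosen by symbol and are rows of a table of 52636 genes. MC-38 is a mouse colon adenocarcinoma cell line. The 3 libraries labelled Zfx-KO came from the MC-38 line M1E5-Zfx-KO-Thy1.2, in which the X-linked zinc finger factor gene Zfx had been targeted by transfecting CRISPR ribonucleoprotein. The 3 control libraries came from M1E5-Thy1.1 cells. Both lines were untreated and were grown under the skin of female mice aged 6 to 10 weeks. Tumors were digested with enzymes, and RNA was taken from tumor cells sorted by flow cytometry. The genotype and the Thy1 allele differ together between the groups, so their effects cannot be told apart. The labels give neither the mouse strain nor the sorting marker. The number of clones is not in them either, and neither is whether each library had its own mouse. The p-values therefore rest on library-to-library spread that could be purely technical.

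FGFs are secreted proteins that bind receptor tyrosine kinases together with heparan sulfate, a sugar chain on cell surface proteoglycans. Bound receptors pair, phosphorylate the adaptor FRS2 and switch on the RAS-ERK cascade, and the cascade in turn switches on its own inhibitors, such as the Sprouty proteins, and ETS factors such as Etv4 and Etv5. Receptors 1 to 3 exist in IIIb and IIIc forms, which differ in an exon of the third immunoglobulin domain. In FGFR2 the IIIb form, typical of epithelium, binds FGF7 and FGF10 from the surrounding mesenchyme, while the IIIc form is typical of mesenchyme itself.

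The gene totals, the only values available here, add both forms. In the GENCODE M21 annotation (GRCm38), 0 coding transcripts of Fgfr1 or Fgfr2 contain both alternative exons, and the counted gene models include the exons of both forms. Across whole transcripts, 0 words of 50 bases, the length of the reads, were common to any 2 of the 10 genes, so reads of one member could be told from those of another.

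Each library held 37763096 to 65050908 reads. The libraries labelled Zfx-KO had 37763096, 38228434 and 65050908 and the controls 42392848, 42962578 and 42723984. Zfx itself stood at 6.30, 6.41 and 6.22 log2 CPM (log2 of counts per 1e6 reads, with a prior of 1 read) in the libraries labelled Zfx-KO, against 5.68, 5.88 and 5.46 in the controls. The label names a loss, yet the measured total was higher, and gene totals do not show whether the transcript carries the edit. The group is therefore called by its label throughout. Of 20094 genes tested with limma, 44.4% passed an adjusted p of 0.05, with 24.9% higher and 19.5% lower where the label was Zfx-KO. Of these calls 56.0% were higher as deposited and 33.6% with equal medians, a scaling that lowers every difference by 0.21. Among genes with a mean of 0 to 3 log2 CPM, where Fgfr2, Fgfr3 and Fgf2 lie, 29.5% were higher and 15.2% lower. Below 0 log2 CPM, where Fgf1, Fgf10, Fgf18 and Fgf21 lie, 22.8% were higher and 3.65% lower.

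Of the 10 genes, 9 passed the filter on low values. The exception was Fgfr4. Of these 9, 5 were called higher (Fgfr2, Fgf2, Fgf7, Fgf10 and Fgf18), 1 was called lower (Fgfr1) and 3 were not called (Fgfr3, Fgf1 and Fgf21). Fgf10 passed the filter through the libraries labelled Zfx-KO, which largely fixed its direction. Among the 9 tested genes, the groups did not overlap in the 6 that were called and overlapped in the 3 that were not. The calls rest on the same values, so this separation is no separate support for them. Such separation was seen in 54.1% of all genes tested, with 30.7% higher and 23.5% lower.

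**Figure D1:**
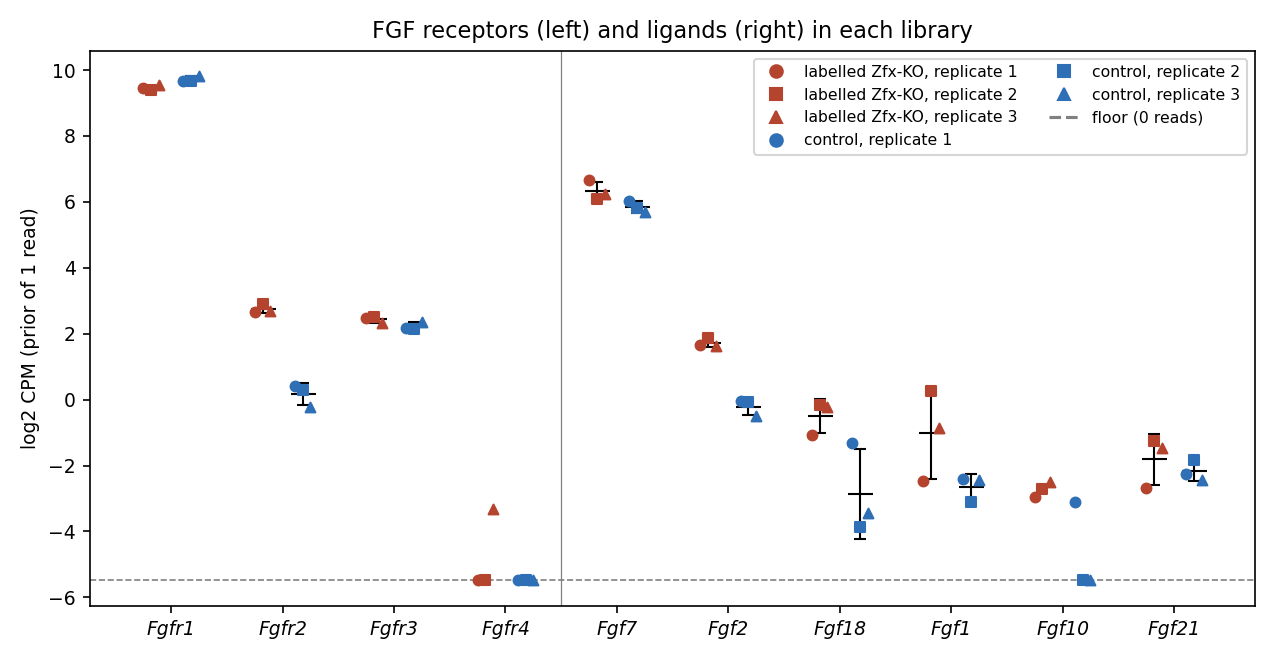
Level of each FGF receptor and ligand gene in each library, as log2 CPM with a prior of 1 read (vertical axis), for the 3 libraries labelled Zfx-KO (red, left of each pair) and the 3 controls (blue). Horizontal marks and bars are means and SD, left out for Fgfr4 and Fgf10, which had libraries at the floor (dashed, 0 reads). Fgfr1 and Fgf7 lie highest in both groups, and Fgfr2 and Fgf2 are separated by group.

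The receptors are described first. Fgfr1, the receptor most used by mesenchymal cells, carried nearly all receptor transcript in both groups and was slightly lower in the libraries labelled Zfx-KO. The gene lies on chromosome 8 from 25518759 to 25575718 (plus strand). It stood at 9.46, 9.40 and 9.53 log2 CPM in the libraries labelled Zfx-KO, against 9.66, 9.66 and 9.82 in the controls. Every library labelled Zfx-KO was below every control. The difference was -0.25 (SE 0.07, limma adjusted p = 0.0123), a fold of 0.841. The call was lost when Zfx-KO replicate 2 was left out (difference -0.22, adjusted p = 0.0528), and with equal medians it was -0.46 (adjusted p = 0.000906).

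Fgfr2, the receptor whose IIIb form answers mesenchymal FGF7 and FGF10 in epithelium, showed the largest fitted difference of the 9 genes on the deposited scale. The gene model in the table spans chromosome 7 from 130162451 to 133123350 (minus strand). The libraries labelled Zfx-KO held 240, 282 and 415 reads and the controls 56, 52 and 36. On the log2 CPM scale these were 2.67, 2.89 and 2.68 in the libraries labelled Zfx-KO, against 0.43, 0.30 and -0.21 in the controls. The groups were far apart relative to the spread within them, with an SD of 0.12 in the libraries labelled Zfx-KO and 0.34 in the controls (n = 3 each). Fgfr2 rose by 2.57 (SE 0.20, 95% interval 2.13 to 3.01, limma adjusted p = 4.14e-06), a fold of 5.95. Leaving out any single library gave differences of 2.38 to 2.70. Of the exonic length of Fgfr2, 6.1% is shared on the same strand with Ctbp2, a transcriptional corepressor gene. Ctbp2 had 8798 reads in the libraries labelled Zfx-KO together and 9279 in the controls, with a difference of -0.22. Reads from the shared stretch could add to the Fgfr2 totals of either group, and how many did was not tested.

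Fgfr3, a receptor that restrains bone growth, stood at 2.49, 2.51 and 2.31 log2 CPM in the libraries labelled Zfx-KO, against 2.16, 2.14 and 2.36 in the controls. The groups overlapped, since control replicate 3 was above Zfx-KO replicate 3. The difference of 0.22 (95% interval -0.07 to 0.50) did not pass the test (limma adjusted p = 0.203). Its size rests on the scaling, with 0.00 under equal medians and -0.03 under quantile normalization. Fgfr4, a receptor prominent in liver, had 0, 0 and 5 recovered reads in the libraries labelled Zfx-KO, against 0, 0 and 0 in the controls. At these depths 0 reads allow up to 0.0698 to 0.0708 CPM in a control library, counting error only.

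Levels of different genes were compared per kilobase of exonic length. Fgfr1 had 135 ± 6.32 CPM per kb in the libraries labelled Zfx-KO and 161 ± 10.5 in the controls (SD, n = 3 each). Fgfr2 had 1.31 ± 0.114 CPM per kb in the libraries labelled Zfx-KO and 0.220 ± 0.049 in the controls. Fgfr3 had 1.23 ± 0.0921 in the libraries labelled Zfx-KO and 1.06 ± 0.0904 in the controls. The order in the controls was therefore Fgfr1, Fgfr3, Fgfr2 and Fgfr4, each step larger than the spread except that Fgfr4 was at 0 reads. In the libraries labelled Zfx-KO the levels of Fgfr2 and Fgfr3 did not differ beyond their spread. As a share of the 4 receptors, Fgfr2 made up 0.906%, 1.09% and 0.863% in the libraries labelled Zfx-KO, against 0.165%, 0.152% and 0.0943% in the controls. Fgfr1 made up 98.1% ± 0.206 in the libraries labelled Zfx-KO and 99.2% ± 0.0269 in the controls (SD, n = 3 each). The summed receptor level was 138 ± 6.15 CPM per kb in the libraries labelled Zfx-KO and 162 ± 10.6 in the controls.

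**Figure D2:**
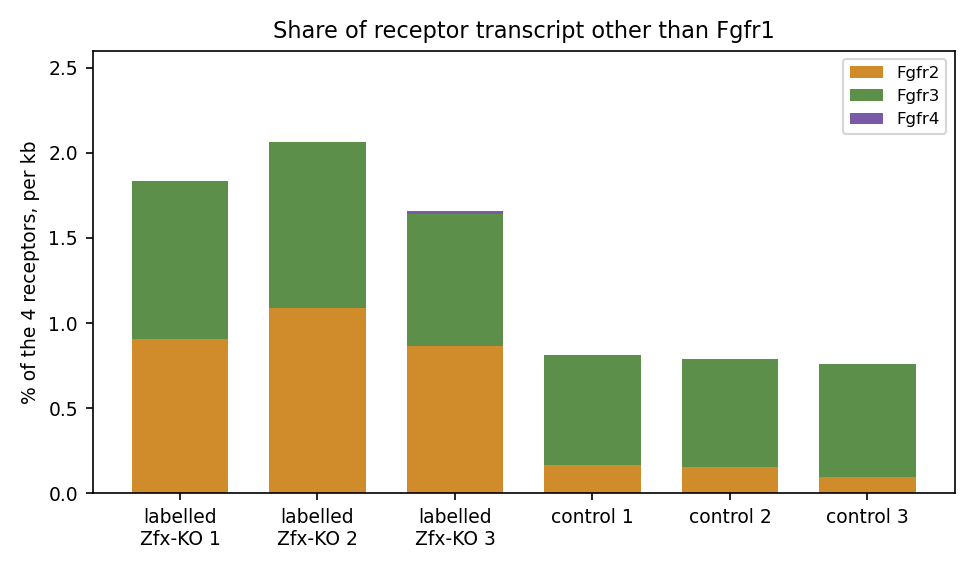
Share of Fgfr2, Fgfr3 and Fgfr4 (stacked bars from 0) in the summed level of the 4 FGF receptors per kilobase of exon, in percent, for each library labelled Zfx-KO and each control. The remainder, over 97% in every library, is Fgfr1; the Fgfr2 segment is taller in each library labelled Zfx-KO than in any control.

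Among the ligands, Fgf7, Fgf2 and Fgf18 rose in the libraries labelled Zfx-KO, and Fgf10 passed the test on very few reads. Fgf7, or keratinocyte growth factor, is made by mesenchymal cells and acts on epithelium through FGFR2-IIIb. It lies on chromosome 2 from 126034658 to 126091185 (plus strand). It had 6.65, 6.10 and 6.24 log2 CPM in the libraries labelled Zfx-KO, against 6.04, 5.81 and 5.68 in the controls. The lowest library labelled Zfx-KO was just above the highest control. The difference was 0.49 (SE 0.13, 95% interval 0.19 to 0.79, limma adjusted p = 0.0139). Under equal medians it was 0.27 and not called (adjusted p = 0.116), and without control replicate 3 it was 0.41 (adjusted p = 0.0555).

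Fgf2, basic FGF, lacks a classical secretion signal, binds IIIc receptors widely and is known for angiogenesis and mesenchymal growth. It lies on chromosome 3 from 37348346 to 37410108 (plus strand). The libraries labelled Zfx-KO held 119, 140 and 199 reads, against 40, 40 and 29 in the controls, or 1.67, 1.88 and 1.62 log2 CPM against -0.05, -0.07 and -0.51. The groups did not overlap. Fgf2 rose by 1.93 (SE 0.21, 95% interval 1.47 to 2.40, limma adjusted p = 4.36e-05), a fold of 3.82, and leaving out any single library gave 1.78 to 2.01. Of the exonic length of Fgf2, 9.8% is shared on the opposite strand with Nudt6, a nudix hydrolase gene transcribed from the antisense side of the locus. The shared stretch is 640 of the 1544 exonic bases of Nudt6. The sources used here do not state strand, so reads in that stretch cannot be told apart. Nudt6 had 1225 reads in the libraries labelled Zfx-KO together and 741 in the controls, against 458 and 109 for Fgf2. How many reads of the shared stretch entered the Fgf2 totals was not tested, so the size of the Fgf2 difference is uncertain. Nudt6 rose by 0.58 (SE 0.11, limma adjusted p = 0.00147).

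Fgf18, a ligand of cartilage and lung growth, had 17, 33 and 54 recovered reads in the libraries labelled Zfx-KO, against 16, 2 and 3 in the controls. On the log2 CPM scale these were -1.08, -0.18 and -0.23 in the libraries labelled Zfx-KO, against -1.32, -3.86 and -3.43 in the controls. Control replicate 1 stood well above the other controls and close to the lowest library labelled Zfx-KO. Fgf18 rose by 2.38 (SE 0.63, 95% interval 0.98 to 3.77, limma adjusted p = 0.0109). The difference was 3.15 without control replicate 1 and 1.88 without control replicate 2. The ratio of pooled reads was 4.50, with an exact 95% interval of 2.79 to 7.57 that covers counting error only.

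Fgf10, which directs branching of lung and other epithelia through FGFR2-IIIb, had 4, 5 and 10 recovered reads in the libraries labelled Zfx-KO, against 4, 0 and 0 in the controls. It passed the filter through the libraries labelled Zfx-KO, since only 1 control had reads, so the filter largely fixed the direction of its test. The difference of 1.97 (SE 0.70, limma adjusted p = 0.0429) lost its call in 5 of 6 fits with a library left out, among them that without control replicate 2 (1.57, adjusted p = 0.114), and was 2.76 (adjusted p = 0.00459) without control replicate 1. That control, at -3.10 log2 CPM, was close to the lowest library labelled Zfx-KO, at -2.96. The ratio of pooled reads was 4.31 with an exact 95% interval of 1.43 to 17.4.

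Fgf1, acidic FGF, binds every FGF receptor. It had 6, 45 and 34 recovered reads in the libraries labelled Zfx-KO, against 7, 4 and 7 in the controls, or -2.46, 0.26 and -0.88 log2 CPM against -2.42, -3.12 and -2.43. Zfx-KO replicate 1 lay within the controls and the others above them. The difference of 1.63 (SE 0.62, 95% interval 0.23 to 3.02) did not pass the test over all genes (limma adjusted p = 0.0575). It was 2.35 without Zfx-KO replicate 1 (adjusted p = 0.00437) and 0.98 without Zfx-KO replicate 2 (adjusted p = 0.225).

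Fgf21, a hormone of liver and of stressed cells, had 5, 15 and 22 recovered reads in the libraries labelled Zfx-KO, against 8, 11 and 7 in the controls. The groups overlapped, at -2.69, -1.27 and -1.47 log2 CPM in the libraries labelled Zfx-KO against -2.24, -1.85 and -2.43 in the controls. The difference of 0.36 (95% interval -0.67 to 1.39) was not called (limma adjusted p = 0.567) and was -0.38 under quantile normalization. It was 0.80 without Zfx-KO replicate 1, 0.09 without Zfx-KO replicate 2 and 0.19 without Zfx-KO replicate 3. Fgf21 signals through the co-receptor beta-klotho. Its gene, Klb, had a pooled total of 2 reads in the libraries labelled Zfx-KO and 0 in the controls.

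Per kilobase of exon, Fgf7 was the most abundant ligand, with 25.9 ± 5.30 CPM per kb in the libraries labelled Zfx-KO and 18.4 ± 2.34 in the controls (SD, n = 3 each). It made up 93.9% ± 2.64 of the summed level of the 6 ligands in the libraries labelled Zfx-KO and 97.3% ± 0.562 in the controls. Next in the libraries labelled Zfx-KO came Fgf18 at 0.602 ± 0.193 and Fgf2 at 0.504 ± 0.0498 CPM per kb, which did not differ beyond their spread. In the controls Fgf21 at 0.213 ± 0.0502, Fgf18 at 0.139 ± 0.156 and Fgf2 at 0.130 ± 0.0229 CPM per kb followed. Every control value of Fgf21 was above every one of Fgf2, whereas the place of Fgf18 was within its own spread. Fgf1 had 0.148 ± 0.124 CPM per kb in the libraries labelled Zfx-KO and 0.0337 ± 0.00986 in the controls. Fgf10 was lowest in both groups. Replicates 1 to 3 of the libraries labelled Zfx-KO did not share a common order, since replicate 1 was highest in Fgf7 and lowest in Fgf1, Fgf18 and Fgf21.

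**Figure D3:**
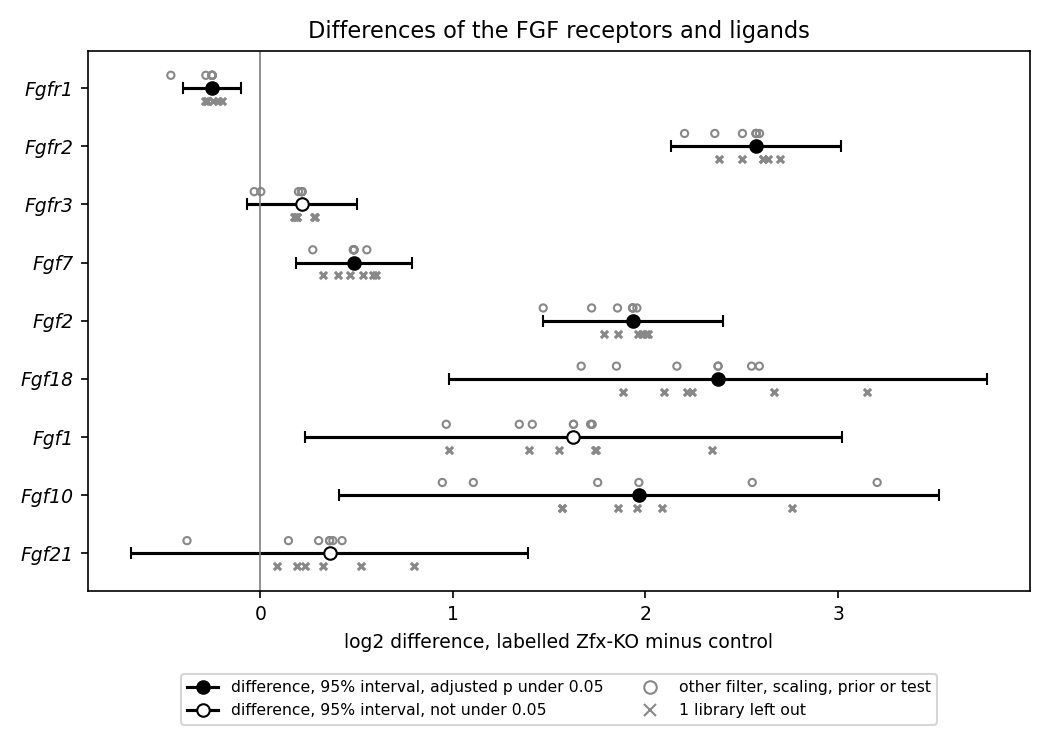
Difference of each tested FGF gene between the libraries labelled Zfx-KO and the controls on the log2 scale (horizontal axis), with the limma 95% interval (black, filled where the adjusted p was under 0.05). Grey circles are other filters, scalings, priors and the voom test, and crosses are fits with 1 library left out. Fgfr2 and Fgf2 stay right of 0 in every fit, whereas circles of Fgfr3 and Fgf21 fall left of 0.

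Summed markers of endothelial cells, pericytes and fibroblasts were separated by group, and the sums of leukocyte markers overlapped. Among single markers, the pericyte marker Pdgfrb and the fibroblast marker Dpt overlapped between the groups. The leukocyte marker Cd3e, with few reads, did not. Beside the marker counts that follow, 24.9% of all genes tested were higher and 19.5% lower. Of 12 endothelial markers, 12 were higher, with summed levels of 122 to 151 CPM in the libraries labelled Zfx-KO. The control sums were 22.4 to 30.2 CPM, and Erg had 0 control reads. Pecam1, with a difference of 2.44, made up most of the endothelial sums in both groups. Of 10 pericyte and smooth muscle markers, 10 were higher, with a median difference of 6.25. Their sums were 576 to 748 CPM in the libraries labelled Zfx-KO and 311 to 360 CPM in the controls, where Abcc9 had 0 reads. Cspg4 and Pdgfrb, with differences of 0.62 and 0.27, made up most of the control sums, so the sums understate the other markers. Rgs5 had 11162 reads in the libraries labelled Zfx-KO together and 48 in the controls. Of 11 fibroblast markers, 8 were higher and 2 lower, with a median difference of 3.75. Their sums were 14090 to 17210 CPM in the libraries labelled Zfx-KO and 8253 to 9875 CPM in the controls. Col3a1, with a difference of 0.30, made up most of the control sums, whereas Col1a1 rose by 5.66 and Pdgfra fell by 0.43. Of 12 leukocyte markers, 1 was higher and 0 lower, with sums of 78.1 to 197 CPM in the libraries labelled Zfx-KO and 39.2 to 170 CPM in the controls. The part of the endothelial, pericyte and fibroblast markers in the differences of Fgfr2, Fgf2, Fgf7, Fgf10 and Fgf18 was not tested. In bulk samples, fewer cells of a type and less RNA per cell cannot be told apart. The tissue label is colon. Of 14 colon epithelial markers 7 were tested, of which 3 were higher (Krt8, Lgr5 and Krt19) and 4 were not called. The sums were 17.0 to 24.1 CPM in the libraries labelled Zfx-KO and 1.08 to 1.91 CPM in the controls. Krt8, with 2571 reads in the libraries labelled Zfx-KO together and 5 in the controls, made up most of the former. Cdh1, most of the control sums, had a difference of 0.18 (limma adjusted p = 0.621). Epcam had 3 reads in the libraries labelled Zfx-KO together and 1 in the controls, and Cdx2 had 0 in both. Erg, Abcc9 and Lgr5 had 0 control reads and passed the filter only through the libraries labelled Zfx-KO, which fixed the direction of their test. Tie1 and Kcnj8 had reads in only 1 control and also passed through those libraries, which largely fixed their direction.

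Of the other 16 FGF family ligands, 3 passed the filter, and 5 had 0 reads in all 6 libraries (Fgf3, Fgf4, Fgf5, Fgf6 and Fgf22). Fgf23, the phosphate hormone of bone, had 38 reads in the libraries labelled Zfx-KO together and 0 in the controls, a rise of at least 11.5-fold when the control group is set to 3 reads in all. Fgf9, a ligand of embryonic mesenchyme and gonad, had 22 reads in the libraries labelled Zfx-KO and 0 in the controls, at least 6.66-fold higher. Both passed the filter only through the libraries labelled Zfx-KO, so the direction of their test was fixed by the filter, and with no filter the limma adjusted p was 0.165 for Fgf23 and 0.231 for Fgf9. Fgf11, of the intracellular FGF subgroup, stood at 2.26 log2 CPM in the libraries labelled Zfx-KO and 2.32 in the controls and was not called (limma adjusted p = 0.833).

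The lists that follow lie mostly at higher levels than the ligands, where the shares over all genes tested were different. From 3 to 6 log2 CPM, 28.5% of genes were higher and 28.8% lower, and from 6 to 9 log2 CPM, 19.8% were higher and 39.1% lower. Co-receptors and FGF-binding proteins included 1 higher and 3 lower genes among 6 tested of 10 listed, with a median difference of -0.66, where all genes tested had 0.09. With 6 genes tested, these counts are not set apart from those shares. Fgfrl1, an FGF receptor-like protein without a kinase domain, fell by 0.91 (SE 0.08, limma adjusted p = 8.8e-06), with 5.27, 5.26 and 5.36 log2 CPM in the libraries labelled Zfx-KO, against 6.26, 6.04 and 6.31 in the controls. Ncam1, an adhesion molecule that also binds FGF receptors, fell by 0.65 (SE 0.06). Fgfbp3, which carries FGFs away from heparan sulfate, rose by 1.08 (SE 0.11, limma adjusted p = 2.32e-05). The klotho genes Kl and Lctl had 0 reads in all 6 libraries.

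The heparan sulfate genes moved both ways. Of 17 tested, 5 were higher and 8 lower, with a median difference of -0.13, beside 24.9% higher and 19.5% lower among all genes tested. The 5 that were higher all lie outside 6 to 9 log2 CPM. At their levels 22.8% to 29.5% of all genes were higher. Most of the 8 that were lower lie at 6 to 9 log2 CPM, where 39.1% of all genes were lower. Without Zfx-KO replicate 1 or without Zfx-KO replicate 2, 3 were higher. The surface proteoglycan Gpc3 rose by 4.62 (SE 0.22, limma adjusted p = 1.95e-07), with 3.77 ± 0.32 log2 CPM in the libraries labelled Zfx-KO and -0.85 ± 0.29 in the controls (SD, n = 3 each). Gpc1, a related proteoglycan at a far higher level, rose by 1.46 (SE 0.07), with 11.32 ± 0.09 log2 CPM in the libraries labelled Zfx-KO and 9.86 ± 0.09 in the controls. Of its exonic length 23.4% overlaps Ankmy1 on the opposite strand, with pooled totals of 46 reads where the label was Zfx-KO and 42 in the controls. Ext2, a subunit of the polymerase that extends the chains, fell by 1.30 (SE 0.06, limma adjusted p = 2.4e-07). Sulf1 and Hs6st2, also called higher, were chosen after their values were seen. Sulf1, which removes 6-O sulfates and is known to lower FGF binding, had 3450 reads in the libraries labelled Zfx-KO together and 15 in the controls. Hs6st2, which adds 6-O sulfates, had 247 reads in the libraries labelled Zfx-KO and 0 in the controls, at least 74.8-fold higher. It passed the filter only through the libraries labelled Zfx-KO, so the direction of its test was fixed by the filter.

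Downstream of the receptors, the adaptor and RAS-ERK list gave counts near the background at its level. Of 21 genes, 4 were higher and 9 lower, with a median of -0.16, beside 19.8% higher and 39.1% lower among all genes at 6 to 9 log2 CPM, where most of the list lies. Under equal medians 0 were higher and 15 lower. The higher count was 1 without Zfx-KO replicate 1 or 2, and 2 without Zfx-KO replicate 3 or control replicate 1. Plcg1, a phospholipase bound by FGF receptors, fell by 0.89 (SE 0.06, limma adjusted p = 1.36e-06), the phosphatase Ptpn11 by 0.74 (SE 0.05) and the RAS exchange factor Sos1 by 0.95 (SE 0.09). Frs2, the main FGF receptor adaptor, chosen after its value was seen, rose by 0.28 (SE 0.08, limma adjusted p = 0.0201).

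Of 14 ERK feedback regulators and ETS targets, 2 were higher and 8 lower, with a median of -0.38, beside 28.5% higher and 28.8% lower among all genes at 3 to 6 log2 CPM and 19.8% and 39.1% at 6 to 9. The higher count was 1 without Zfx-KO replicate 1, Zfx-KO replicate 3 or control replicate 2. Etv4 had 4.70, 4.53 and 4.58 log2 CPM in the libraries labelled Zfx-KO, against 5.59, 5.51 and 5.64 in the controls, and fell by 0.98 (SE 0.07, limma adjusted p = 3.18e-06). Etv5 fell by 1.11 (SE 0.09), and Spry4, an inhibitor of RAS activation, fell by 1.13 (SE 0.11, limma adjusted p = 1.64e-05). The groups did not overlap for these 3 genes. Dusp6, an ERK phosphatase, had a difference of 0.17 (limma adjusted p = 0.243) and Spry2 one of -0.01 (limma adjusted p = 0.95), both named after their values were seen. The 2 that were higher were Spred3 and Spry3, the second with 17 reads in the libraries labelled Zfx-KO together and 3 in the controls.

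The genes that regulate the choice between IIIb and IIIc exons included 0 that were called higher. Esrp1, the epithelial factor that promotes IIIb exons, had 4 reads in the libraries labelled Zfx-KO together and 0 in the controls, and its relative Esrp2 had 9 reads in the libraries labelled Zfx-KO and 3 in the controls. Of 5 genes tested of 6 listed, 0 were higher and 3 lower, with a median of -0.20, and the 3 lie at 6 to 9 log2 CPM, where 39.1% of all genes were lower. Hnrnpm fell by 0.35 (SE 0.06, limma adjusted p = 0.000529), Rbfox2 by 0.23 (SE 0.06) and Ptbp1 by 0.20 (SE 0.05, limma adjusted p = 0.0139). The call of Ptbp1 was lost under quantile normalization (-0.12, adjusted p = 0.0843), without Zfx-KO replicate 2 (adjusted p = 0.0611) and without control replicate 1 (adjusted p = 0.0613). Hnrnpm shares 29.1% of its exonic length with March2 on the same strand, so its level is uncertain.

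**Figure D4:**
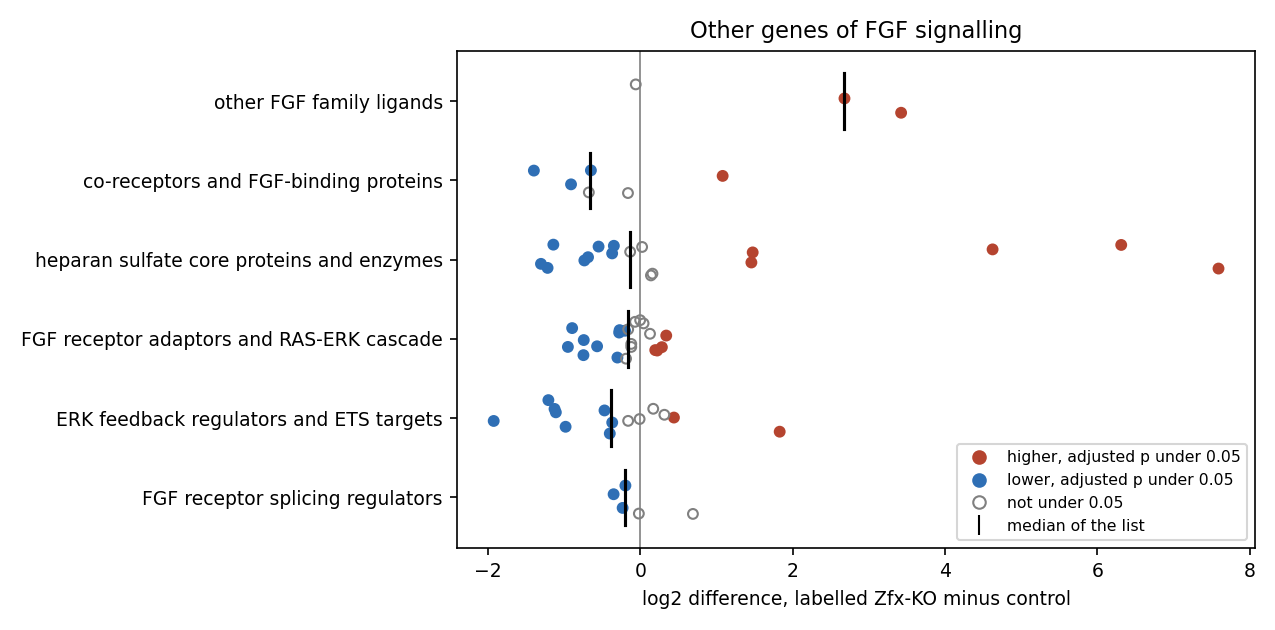
Log2 difference between the libraries labelled Zfx-KO and the controls (horizontal axis) for the tested genes of 6 lists of FGF signalling, 1 point per gene, filled where the limma adjusted p was under 0.05 (red higher, blue lower), with black bars at list medians. Most filled points of the cascade and feedback lists lie left of 0; points of Fgf9, Fgf23 and Hs6st2, which had 0 control reads, depend on the prior of the log scale.

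The genes whose pattern over the 6 libraries was most like that of Fgf18 were Cd59a, Rgag4 and Fgf10, with root-mean-square distances of 0.25, 0.30 and 0.31 log2 units after centring each gene. Those nearest to Fgf1 were Angptl1 (0.28), Thrsp (0.29) and Lrp2bp (0.31). Fgf18 and Fgf1 had the widest ranges of the 9 tested genes, 3.69 and 3.38 log2 units. The search covered 14127 genes with 6 points each, which share their depth and, for scarce genes, the floor, so the distances describe these libraries only.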

How the data were processed

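RNA of 6 sorted tumor cell samples was sequenced. The authors deposited log2 values per gene, per the file headers, with an exonic length. The submitters' processing notes name the builds GRCh38 and mm10 without a role; aligner, counter and strand setting are not named in the material used here. Genes without reads shared a floor of -5.48715, and the values gave whole reads within 0.05 for 100% of values below 2000 reads when read as log2 CPM with a prior of 1 read scaled to library size. The table held 0 columns of other samples. Words of 50 bases shared with transcripts of other genes made up 0% to 11.6% of a member's words.

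The filter asked for 3 or more libraries with reads and a mean of 1 log2 unit or more over the floor. Groups came from the genotype label. They were compared with limma 3.58.1 in R 4.3.3 (intensity trend, two-sided, Benjamini-Hochberg adjustment over all 20094 genes, threshold 0.05). The fit was also run on simulated data with a spread set in advance, which gives no error rate for the calls made here. Differences understate changes of scarce genes. Tables and plots were made with matplotlib 3.10.9, scipy 1.17.1, numpy 2.4.6, pandas 2.3.3 and Python 3.11.15. Gene identifiers were found in GENCODE M21 in 99.7% of cases, which gave chromosomes and exons; start and end are those of the table. Intervals from reads cover counting error only. The members and lists were chosen with earlier results of these data known. Genes named beside the members were Zfx, in each pathway list the 3 with the smallest adjusted p past the threshold, and the 3 genes nearest in pattern to the 2 members of widest range; others from the lists were named after their values were seen, and Ctbp2, Nudt6, Ankmy1 and March2 for their overlap. Sequences of the alternative receptor exons are not reported here.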

Additional observations from a re-analysis of the deposited data

How the results depend on the processing

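The calls of Fgfr2 and Fgf2 and that of Zfx were kept in every alternative run: other filters, scalings and priors, limma voom on recovered reads, and leaving out each library. None of these runs set aside the stretches shared with Ctbp2 and Nudt6. Without a filter 5787 genes were called, 3076 of them higher, and the calls of Fgfr1 (-0.25, adjusted p = 0.113), Fgf7 (0.49, 0.245), Fgf10 (1.97, 0.589) and Fgf18 (2.38, 0.182) were lost. In that fit 0 other FGF ligands, 0 adaptor and cascade genes and 1 feedback gene were higher; 52636 genes were then tested. With equal medians 3224 genes were higher and 6357 lower, Fgf7 (0.27) and Fgf10 (1.75, adjusted p = 0.0603) were not called, and the adaptor and cascade list had 0 higher and 15 lower. With quantile normalization Fgfr3 (-0.031) and Fgf21 (-0.38) changed sign, Fgf10 (1.11, adjusted p = 0.192) was not called and 1 feedback gene was higher. With the prior times 4 Fgf1 was called (1.34, adjusted p = 0.0497), and with the prior times 0.25 Fgf10 was not (3.20, adjusted p = 0.0506). With the filter 3 log2 units above the floor 0 other ligands and 1 feedback gene were higher, and Fgf10 was not tested. The cause of these changes was not tested.

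Leaving out each library gave differences of -0.29 to -0.20 for Fgfr1, 0.98 to 2.35 for Fgf1, 0.33 to 0.60 for Fgf7, 1.57 to 2.76 for Fgf10, 1.88 to 3.15 for Fgf18 and 0.09 to 0.80 for Fgf21. It gave 7135 to 8747 genes called, and counts of higher genes of 0 to 2 for other ligands, 3 to 5 for heparan sulfate genes, 1 to 3 for adaptor and cascade genes and 1 to 2 for feedback genes. No paired analysis was run because the labels and column names carry no replicate numbers. Those used here follow accession order and only name libraries. In that order the leukocyte marker Adgre1 stood at 3.28, 1.03 and 1.63 log2 CPM in the libraries labelled Zfx-KO, against 3.25, 0.55 and 1.97 in the controls. Csf1r and C1qa ranked the libraries in the same way, whereas the scarce Cd3e, Cd8a and Cd79a did not. Whether libraries of the groups shared a mouse or a batch was not tested, and the fit treats them as unpaired.

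One read equals 0.0154 to 0.0265 CPM in a library, which limits the genes with few reads: in the controls together Fgfr4 had 0, Fgf10 4, Fgf1 18, Fgf18 21 and Fgf21 26.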
